A study of Mus musculus with 8 samples.

Results

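The MCM replicative helicase was followed here through 7 genes, found by symbol in the deposited expression tables: Mcm2, Mcm3, Mcm4, Mcm5, Mcm6 and Mcm7, which encode the 6 subunits of the hexameric ring, and Mcm10, which encodes a separate protein that works with the ring. They are 7 of the 55401 genes listed for each dish, and all 7 were among the 12122 genes abundant enough to test. Mean levels of the 7 genes were 8.1% to 11.1% higher in AML12 cells after 1 h of Opti-ELF-WMF than in control cells. For the 6 subunits every exposed dish lay above every control dish, as in 8.01% of all genes tested, while for Mcm10 the dishes overlapped. No gene of the whole table passed the threshold after adjustment. The family was chosen by its subunits' names and because Mcm3 had 1 of the smallest p-values of this same comparison, so the differences are descriptions and carry no test.

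AML12 is a mouse hepatocyte line, established from the liver of an animal carrying a transgene for transforming growth factor alpha, that divides in culture with serum, insulin and dexamethasone. The exposed group was 4 dishes kept for 1 h under Opti-ELF-WMF, a pulsed weak magnetic field with a peak of 100 mG, a pulse width of 4 ms and a pulse frequency that stepped up from 1 to 8 Hz. The control group was 4 dishes with no treatment, which stood in a second incubator of the same model with the stimulator off and with the same copper shielding. The paper says in general that control and exposed cells were prepared together from 1 batch, without naming these 8 dishes. Condition and incubator cannot be told apart. Spreads and p-values measure variation between dishes and may cover no more than 1 batch of cells.

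Levels are in TPM, a length-corrected share of transcripts that sums to 1000000 in every dish and keeps no sequencing depth. Between 19386 and 20114 genes were above 0 TPM per dish. Of 10 hepatocyte markers, 10 had at least 1 TPM in every dish, and their sum ran from 5469.7 to 5734.6 TPM in control and from 5828.6 to 6042.6 TPM in exposed dishes, most of it from the keratins Krt8 and Krt18. The list did not move as one. Alb, which encodes albumin, had a lower mean in exposed dishes (52.55 to 58.22 TPM in control, 46.12 to 53.04 TPM in exposed dishes, log2 difference -0.15), as had Ttr, Apoa1 and Cebpa (-0.04, -0.22 and -0.19), while the other 6 had a higher mean, and none of the 10 passed an adjusted p-value of 0.05 in limma. The part of these shifts in the MCM values was not tested. The macrophage marker Adgre1, the endothelial marker Cdh5 and the stellate cell marker Lrat were listed at 0 in all 8 dishes. Of the macrophage markers, Cd68 was the 1 of 4 with at least 1 TPM throughout and the list summed to 1.6 to 2.34 TPM in control and 1.2 to 1.81 TPM in exposed dishes, while none of 3 endothelial markers reached 1 TPM. Of 6 stellate or fibroblast markers Vim, also made by many cultured epithelial cells, was the only one at 1 TPM or more in every dish and gave nearly the whole sum, 1305.7 to 1403.1 TPM in control and 1381.9 to 1509.9 TPM in exposed dishes. Transcripts of the mitochondrial genome held 8.69% to 9.42% of TPM in control dishes and 5.99% to 7.69% in exposed dishes, and since TPM has a fixed sum, the other genes took up that share.

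The MCM ring is put onto DNA in G1 phase at replication origins, as an inactive double hexamer, by the origin recognition complex with the loading factors Cdc6 and Cdt1. In S phase the kinases Cdc7 and Cdk2 switch it on, and Cdc45 and the GINS complex join it to form the helicase that unwinds DNA ahead of the polymerases. Mcm10 is needed for that last step, in which the paired rings separate and begin to unwind. The MCM genes are transcribed as cells pass from G1 to S phase under E2F factors, and in the liver they are low at rest and high when hepatocytes divide. In bulk RNA, more cells at the G1 to S transition and more MCM RNA per cell cannot be told apart.

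The stretches of promoter below are shown because E2F words are what the subunit genes are best known to share, and because the windows give a view of the genes that the rule for choosing them did not use. The words searched, on both strands, were TTTCCCGC, TTTCGCGC, TTTGCCGC and TTTGGCGC, in RefSeq windows from 250 bases before to 50 bases after each transcription start on GRCm38.p6. Words found on the other strand read as their reverse complement. In the first 4 lines capitals mark the searched words, which overlap each other, on opposite strands, in the first run of capitals of Mcm6 and in Mcm5.
Mcm6, chr1:128359736-128359823, minus strand, from 118 to 31 bases before the start: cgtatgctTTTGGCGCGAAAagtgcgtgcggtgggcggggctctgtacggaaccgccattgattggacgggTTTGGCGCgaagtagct
Mcm5, chr8:75109339-75109378, plus strand, from 170 to 131 bases before the start: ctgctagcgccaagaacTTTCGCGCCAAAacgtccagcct
Mcm7, chr5:138172029-138172058, minus strand, from 175 to 146 bases before the start: atttcgaaccGCGGGAAAcagggtgtccaa
Mcm3, chr1:20820266-20820295, minus strand, from 18 to 47 bases after the start: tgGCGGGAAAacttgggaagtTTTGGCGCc
Mcm10, chr2:5012802-5012901, minus strand, from 110 to 11 bases before the start, with CCAAT in capitals: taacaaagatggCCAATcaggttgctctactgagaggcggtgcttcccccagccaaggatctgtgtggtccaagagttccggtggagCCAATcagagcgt
Mcm2, chr6:88898931-88898970, minus strand, from 190 to 151 bases before the start, with ATTGG, which is CCAAT on the other strand, in capitals: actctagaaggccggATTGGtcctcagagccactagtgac

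At least one of the 4 E2F words stood in the windows of Mcm3, Mcm5, Mcm6 and Mcm7, that is in 4 of the 6 members with a window in the RefSeq table, and in 744 of all 32851 windows (2.26%). Mcm6 had the most, with words beginning 110, 106 and 47 bases before the start. For words and stretches after a start, the start base itself is counted as base 1. All distances are from RefSeq's starts, which equal the GENCODE gene starts for Mcm2, Mcm3 and Mcm10. They lie 41 bases upstream for Mcm6 and 60 bases upstream for Mcm5. Mcm7 has RefSeq windows with starts 539 and 1156 bases downstream, and the latter window held no E2F word. From the start at 539 bases, Mcm7 had a word 165 bases before and another 17 bases after. Its printed stretch therefore lies inside the gene as GENCODE draws it, where the gene Ap4m1 overlaps Mcm7 on the opposite strand. The Mcm2 and Mcm10 windows held none of the 4 words, and a missing word says only that these letters are not in this window. Whether the words bear on the TPM differences was not tested. The CCAAT word, searched on both strands, stood in a window of 6 of 6 members and of 8 of 8 genes of a G2/M list. Of all windows, 12289 held it (37.4%). Among loading genes with a window, 4 of 8 had an E2F word (Cdc6, Cdt1, Orc1 and Orc3). Among activation genes with a window, 3 of 10 had an E2F word (Clspn, Gins3 and Topbp1). Of genes with a window in the other lists, an E2F word was found for 2 of 4 MCM relatives and handlers (Mcm8 and Mcmbp). It was found for 1 of 8 S phase genes (Uhrf1) and 1 of 8 G2/M genes (Cdk1). In the members and lists a gene counted if any of its windows held the word. The shares of 2.26% and 37.4% count single windows, so they are not like for like with the gene counts. A match is a description of the letters and not a binding site.

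Mcm2 (GRCm38 chr6:88883474-88898780, 16 exons, 904 residues) encodes the subunit at the gate through which DNA enters the ring, together with Mcm5, and it also carries histones. Its TPM was 151.35, 154.91, 151.33 and 154.30 in control dishes 1 to 4, and 161.86, 176.75, 165.92 and 168.57 in exposed dishes 1 to 4. The 4 control dishes lay within 4 TPM of each other, the exposed dishes were spread wider with dish 2 highest, and the groups did not overlap. The mean went from 153.0 ± 1.9 to 168.3 ± 6.29 TPM (SD, n = 4), 10% higher, a log2 difference of 0.14 with a standard error of 0.03.

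Mcm5 (chr8:75109569-75128439, 17 exons, 734 residues) forms the other side of that gate. Control dishes 1 to 4 had 114.27, 113.63, 114.32 and 118.35 TPM, and exposed dishes 1 to 4 had 124.09, 129.96, 123.30 and 123.87 TPM. In each group 1 dish stood above 3 that were nearly equal, control dish 4 and exposed dish 2, and the groups did not overlap. The mean was 115.1 ± 2.16 TPM in control and 125.3 ± 3.12 TPM in exposed dishes (SD, n = 4), 8.8% higher, with a log2 difference of 0.12 and a standard error of 0.03.

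Mcm3 (chr1:20802968-20820312, 17 exons, 812 residues) encodes the neighbour of Mcm5 in the ring, through which Cdc6 and the origin recognition complex recruit the helicase. Its TPM was 131.28, 128.66, 132.64 and 129.64 in control dishes and 147.27, 147.44, 141.94 and 143.79 in exposed dishes. The lowest exposed dish stood more than 9 TPM above the highest control dish, and both groups were narrow. The mean went from 130.6 ± 1.76 to 145.1 ± 2.7 TPM (SD, n = 4), 11.1% higher, a log2 difference of 0.15 with a standard error of 0.02. This gene ranked 6 of 12122 by p-value, and that rank is what brought the family forward.

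Mcm4, Mcm6 and Mcm7 make up the core that can unwind DNA on its own in the test tube. Mcm4 (chr16:15623897-15637400, 16 exons, 862 residues) had 81.06, 84.62, 84.73 and 84.96 TPM in control dishes and 92.27, 93.74, 94.52 and 88.49 TPM in exposed dishes. Control dish 1 and exposed dish 4 lay below the rest of their groups, and the groups did not overlap. The mean was 83.8 ± 1.86 TPM in control and 92.3 ± 2.68 TPM in exposed dishes (SD, n = 4), 10% higher, with a log2 difference of 0.14 and a standard error of 0.03. Its neighbour Prkdc, which encodes a DNA repair kinase, starts 466 bases away on the opposite strand. Prkdc had 4.36 ± 0.221 TPM in control and 4.33 ± 0.352 TPM in exposed dishes (SD, n = 4), with a log2 difference of -0.01 and a standard error of 0.07.

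Mcm6 (chr1:128331590-128359664, 17 exons, 821 residues) had the highest level of the family. Its TPM was 217.30, 217.51, 213.37 and 212.96 in control dishes and 234.62, 241.06, 234.26 and 228.95 in exposed dishes. The control dishes formed a tight group and the exposed dishes all lay above it, dish 2 highest and dish 4 lowest. The mean went from 215.3 ± 2.46 to 234.7 ± 4.96 TPM (SD, n = 4), 9.0% higher, a log2 difference of 0.12 with a standard error of 0.02.

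Mcm7 (chr5:138164583-138172422, 15 exons, 719 residues) had 206.58, 203.71, 198.00 and 196.76 TPM in control dishes and 211.21, 226.99, 211.56 and 220.16 TPM in exposed dishes. Its groups came closest to each other among the 6 subunits in relative terms, control dish 1 lying just under exposed dishes 1 and 3. The mean was 201.3 ± 4.66 TPM in control and 217.5 ± 7.57 TPM in exposed dishes (SD, n = 4), 8.1% higher, with a log2 difference of 0.11 and a standard error of 0.03. The gene is a crowded locus. Ap4m1, for a subunit of a vesicle adaptor, overlaps its 5′ end by 421 bases on the opposite strand and had 15.8 ± 0.964 and 15.0 ± 1.05 TPM (SD, n = 4). Cops6, for a subunit of the COP9 signalosome, overlaps its 3′ end by 64 bases and had 123.6 ± 4.01 and 130.5 ± 3.94 TPM (SD, n = 4), with overlapping groups. The microRNA genes Mir25, Mir93 and Mir106b lie inside Mcm7 and were listed at 0 in all 8 dishes, in libraries that do not capture mature microRNAs. Whether strand was used in counting is not given in the sources used here, so reads from these overlaps cannot be told apart. A near-identical copy of Mcm7, Gm5487, matches it with 97.682% identity over 2157 bases and had a mean of 0.29 TPM.

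Mcm10 (chr2:4989714-5012791, 20 exons, 885 residues) encodes a protein outside the subunit family, despite its name, and had the lowest level of the 7 genes. Its TPM was 23.94, 24.44, 25.96 and 26.73 in control dishes and 26.43, 27.55, 28.21 and 27.72 in exposed dishes. Exposed dish 1 lay below control dish 4, so the groups overlapped, with 3 of 4 exposed dishes above every control dish. The mean went from 25.3 ± 1.3 to 27.5 ± 0.752 TPM (SD, n = 4), 8.7% higher, a log2 difference of 0.12 with a standard error of 0.04. Its control dishes varied more than those of any subunit, with a coefficient of variation of 5.14% against 1.14% to 2.32%.

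**Figure D1:**
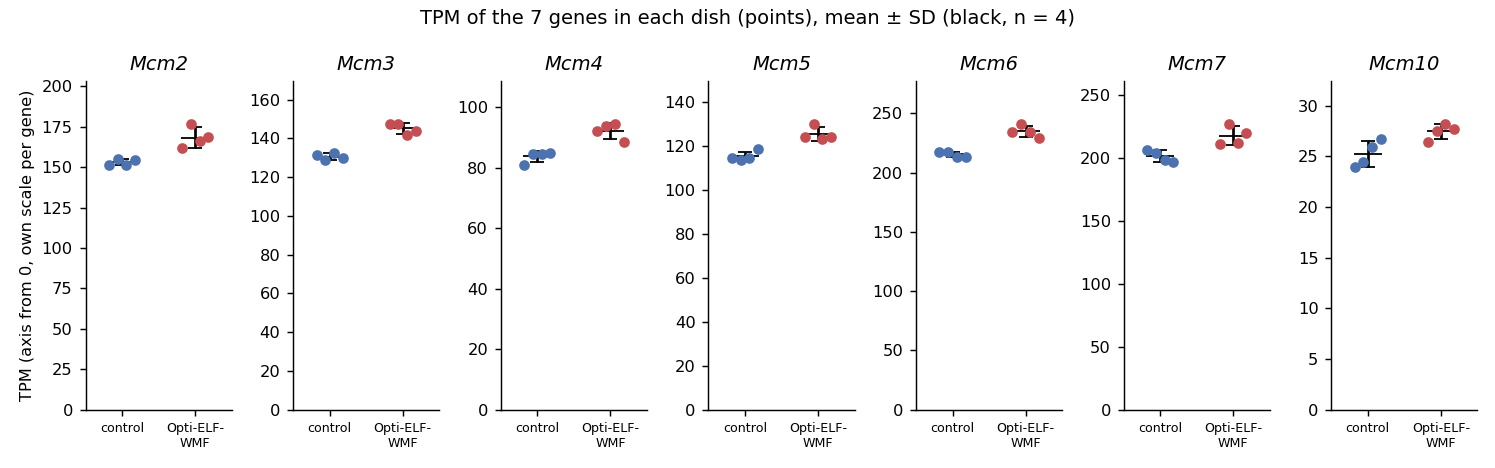
TPM of each of the 7 genes by condition, 1 point per dish, with mean and SD in black (n = 4), each panel on its own axis from 0. The exposed dishes lie above the control dishes in 6 panels, and in the Mcm10 panel the lowest exposed dish (26.43) lies below the highest control dish (26.73).

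Over the family, mean levels were higher in exposed dishes for 7 of 7 genes, where 7720 of all 12122 tested genes (63.7%) had a higher mean. The groups did not overlap, with exposed dishes above, in 6 of 7 genes, against 8.01% of all genes, and an unadjusted p-value under 0.05 with a higher mean was found in 7 of 7, against 12.0% of all genes (3.65% with a lower mean). The latter count was 6 of 7 in 5 of 16 alternative fits, Mcm7 dropping out with upper-quartile scaling and Mcm10 without mitochondrial genes, without control dish 1, without control dish 2 and without exposed dish 3. Nothing is read from these counts, since the contrast that gives them also brought the genes forward. After Benjamini-Hochberg adjustment in limma 0 of the 12122 genes (0.0%), and so 0 of the 7, passed 0.05, while 1894 (15.6%) were under 0.05 before adjustment. The smallest adjusted p-value of any gene was 0.0572. By p-value the other members ranked 30 (Mcm6), 99 (Mcm2), 107 (Mcm4), 114 (Mcm5), 390 (Mcm7) and 1185 (Mcm10). Their log2 differences ran from 0.11 to 0.15 with a median of 0.12, beside a median of 0.03 over all tested genes.

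**Figure D2:**
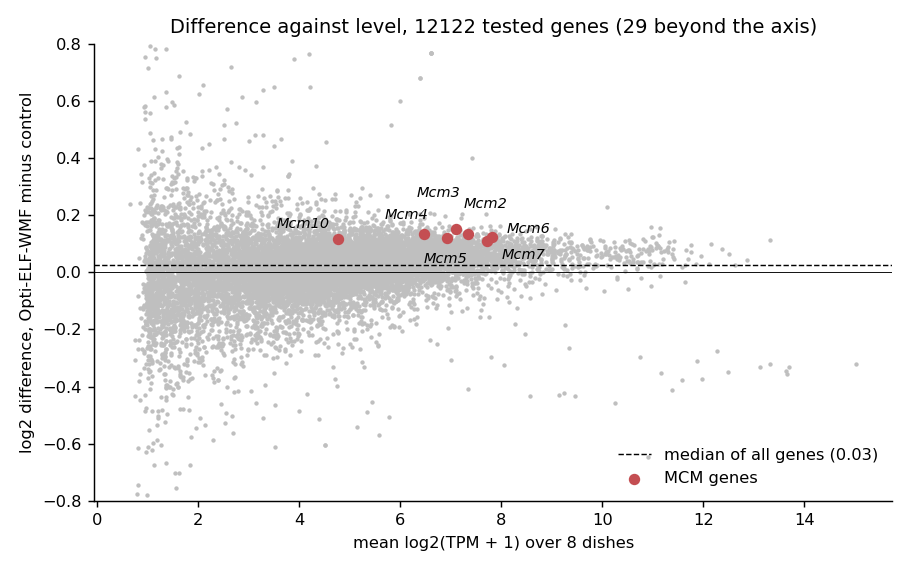
Log2 difference (Opti-ELF-WMF minus control) against mean log2(TPM + 1) over 8 dishes for all 12122 tested genes, with 29 genes beyond the vertical axis. The 7 MCM genes, in red, lie between 0.11 and 0.15, above the dashed median of all genes at 0.03 and within the range that other genes of like level cover.

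The 6 subunits stand in the ring in 1 copy each, but their RNA levels did not. From highest to lowest the order was Mcm6, Mcm7, Mcm2, Mcm3, Mcm5, Mcm4 and then Mcm10, and it was the same in 8 of 8 dishes. Per dish Mcm6 exceeded Mcm7 by 1.04 to 1.11 times, Mcm7 exceeded Mcm2 by 1.28 to 1.36 times and Mcm2 exceeded Mcm3 by 1.10 to 1.20 times. Mcm3 exceeded Mcm5 by 1.10 to 1.19 times, Mcm5 exceeded Mcm4 by 1.3 to 1.41 times and Mcm4 exceeded Mcm10 by 3.18 to 3.49 times. In the control dishes the ranges of neighbours in this order did not overlap. Over all 8 dishes those of Mcm6 and Mcm7 did (lowest Mcm6 212.96, highest Mcm7 226.99), as did those of Mcm3 and Mcm5 (lowest Mcm3 128.66, highest Mcm5 129.96). The control means of the subunits lay between percentile 83.9 (Mcm4) and 94.6 (Mcm6) of all tested genes, and that of Mcm10 at percentile 54.2.

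Summed over Mcm2 to Mcm7, control dishes 1 to 4 had 901.8, 903.0, 894.4 and 897.0 TPM and exposed dishes 1 to 4 had 971.3, 1015.9, 971.5 and 973.8 TPM. The control sums were close to equal, 3 exposed sums were close to equal at a higher level, and exposed dish 2 stood above them. The mean sum was 899.0 ± 4.04 TPM in control and 983.1 ± 21.9 TPM in exposed dishes (SD, n = 4), 9.35% higher. Exposed dish 2 was the highest exposed dish in 5 of the 7 genes, Mcm4 and Mcm10 having their highest value in exposed dish 3.

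Within that sum the 6 subunits kept overlapping shares. As a percentage of the sum, a quantity that no scaling of a dish can move, Mcm6 made up 23.9% ± 0.177 in control and 23.9% ± 0.308 in exposed dishes (SD, n = 4), and Mcm2 made up 17.0% ± 0.197 and 17.1% ± 0.33. Mcm3 had a share of 14.5% ± 0.242 and 14.8% ± 0.286, and Mcm7 one of 22.4% ± 0.434 and 22.1% ± 0.428 (SD, n = 4). Mcm3 was 0.24 percentage points up and Mcm7 0.27 down, and both overlapped between groups. With 1 dish left out these shifts ran from 0.108 (without exposed dish 1) to 0.343 (without control dish 3) up for Mcm3 and from -0.43 (without exposed dish 4) to -0.093 (without control dish 1) for Mcm7, while that of Mcm2 ran from 0.003 (without exposed dish 2) to 0.247 (without exposed dish 1). Mcm5 went from 12.8% ± 0.269 to 12.7% ± 0.048 and Mcm4 from 9.32% ± 0.228 to 9.39% ± 0.285 (SD, n = 4), again with overlapping dishes. With 1 dish left out the shifts of Mcm4 (-0.055 to 0.159), Mcm5 (-0.138 to 0.066) and Mcm6 (-0.161 to 0.054) changed sign. Mcm10 amounted to 2.81% ± 0.155 of the summed subunits in control and 2.80% ± 0.0946 in exposed dishes (SD, n = 4).

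**Figure D3:**
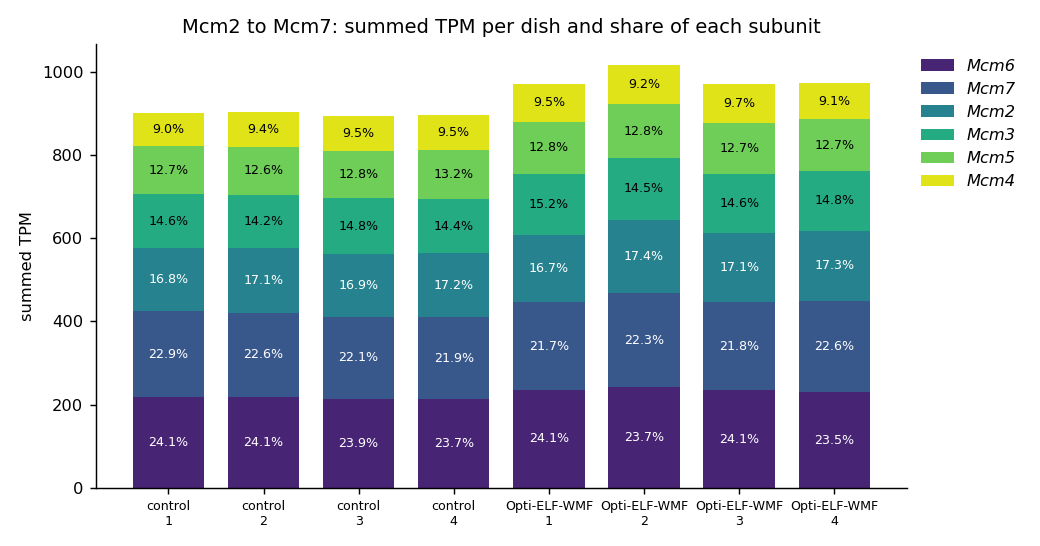
Summed TPM of Mcm2 to Mcm7 in each of the 8 dishes, stacked by subunit, with the percentage each subunit makes up of its dish printed in the bar. The 4 exposed sums (971.3 to 1015.9) lie above the 4 control sums (894.4 to 903.0), while the 6 percentages overlap between the groups.

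The genes that load the ring and switch it on were next examined by the same fit. Of 9 loading genes (Orc1 to Orc6, Cdc6, Cdt1 and the Cdt1 inhibitor Gmnn) 8 had a higher mean in exposed dishes (63.7% of all genes), 0 passed an adjusted p-value of 0.05 in limma in either direction, and the median log2 difference was 0.05. Cdc6, the ATPase that closes the loading complex, had 24.5 ± 1.03 TPM in control and 26.6 ± 1.21 TPM in exposed dishes (SD, n = 4). Its log2 difference was 0.11 with a standard error of 0.05 (limma adjusted p = 0.256). It was the 1 of 9 loading genes with every exposed dish above every control dish (8.01% of all genes), and 0 had every exposed dish below (1.86%). Cdt1, which brings the ring to the origin, had 54.1 ± 3.01 and 58.5 ± 2.87 TPM (SD, n = 4), a difference of 0.11 with a standard error of 0.05 (limma adjusted p = 0.307). Orc4 gave 0.09 with a standard error of 0.04 (limma adjusted p = 0.281). Orc3 was the 1 gene with a lower mean, at -0.02 with a standard error of 0.06 (limma adjusted p = 0.904). Per dish the MCM sum was 2.124 to 2.162 times the sum of the loading genes in control dishes and 2.197 to 2.293 times in exposed dishes.

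Of 16 activation genes 11 had a higher (63.7% of all genes) and 5 a lower mean, again with 0 past an adjusted p-value of 0.05 in limma, and the median log2 difference was 0.03. Dbf4, the regulatory subunit of the Cdc7 kinase that phosphorylates the ring, had 66.6 ± 1.88 TPM in control and 70.4 ± 0.634 TPM in exposed dishes (SD, n = 4). That was 0.08 higher with a standard error of 0.03 (limma adjusted p = 0.223). Dbf4 was the 1 of 16 activation genes with every exposed dish above every control dish (8.01% of all genes), and 0 had every exposed dish below (1.86%). Cdc7 itself had 14.4 ± 1.64 and 12.9 ± 1.06 TPM (SD, n = 4), a log2 difference of -0.14 with a standard error of 0.08 (limma adjusted p = 0.446), so the means of the kinase and its activator differed in opposite directions, neither past the threshold. Cdc45, which joins the active helicase, had 26.1 ± 1.14 and 27.8 ± 0.297 TPM (SD, n = 4), 0.09 higher with a standard error of 0.04 (limma adjusted p = 0.309). Tipin, of the complex that travels with the fork, gave 0.14 with a standard error of 0.05 (limma adjusted p = 0.256). Gins3, a subunit of GINS, gave -0.05 with a standard error of 0.06 (limma adjusted p = 0.739), and the checkpoint adaptor Clspn gave -0.04 with a standard error of 0.05 (limma adjusted p = 0.74). The MCM sum was 1.504 to 1.536 times the summed activation genes in control dishes and 1.576 to 1.611 times in exposed dishes.

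The relatives and handlers of the ring had a median log2 difference of 0.01 over 4 tested genes. Mcm8 and Mcm9, which form a separate helicase used in homologous recombination, had log2 differences of 0.09 (standard error 0.06, limma adjusted p = 0.453) and -0.01 (standard error 0.08, limma adjusted p = 0.974). Mcmbp, a chaperone of newly made MCM subunits, had 69.2 ± 3.02 TPM in control and 68.0 ± 3.84 TPM in exposed dishes (SD, n = 4), a difference of -0.03 (standard error 0.05, limma adjusted p = 0.836). Mcm3ap, which despite its name is best known in the export of mRNA from the nucleus, gave 0.03 (standard error 0.05, limma adjusted p = 0.837). Mcmdc2, a meiotic relative, was below the abundance limit with 0.05 to 0.44 TPM. Taking the loading, activation and handling genes as 1 list of 29 tested genes, 21 had a higher mean (63.7% of all genes) and 8 a lower one, and 7 had an unadjusted p-value under 0.05 with a higher mean (12.0% of all genes) and 0 with a lower one (3.65%). Their median log2 difference was 0.04, and 0.007 to 0.0146 under 3 other scalings.

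Of 10 genes that mark S phase 9 had a higher mean (63.7% of all genes), 7 had an unadjusted p-value under 0.05 with a higher mean (12.0% of all genes), 6 had every exposed dish above every control dish (8.01% of all genes) and 0 had an adjusted p-value under 0.05 in limma, and the median log2 difference was 0.09. Pcna, the sliding clamp of the polymerases, had 281.6 ± 2.98 TPM in control and 309.2 ± 7.65 TPM in exposed dishes (SD, n = 4), a log2 difference of 0.13 with a standard error of 0.02 (limma adjusted p = 0.122). Rrm1, for the large subunit of ribonucleotide reductase, gave 0.10 with a standard error of 0.02 (limma adjusted p = 0.134), and Tyms, for thymidylate synthase, gave 0.10 with a standard error of 0.03 (limma adjusted p = 0.144). Slbp, which binds the stem-loop of histone mRNA, was the exception at -0.02 with a standard error of 0.03 (limma adjusted p = 0.774). The MCM sum stood at 3.139 to 3.22 times Pcna in control and 3.067 to 3.269 times in exposed dishes, and at 0.813 to 0.815 and 0.81 to 0.857 times the summed S phase genes, both with overlap.

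Of 8 genes of G2 and mitosis 8 had a higher mean (63.7% of all genes), 3 had an unadjusted p-value under 0.05 with a higher mean (12.0% of all genes) and 0 had an adjusted p-value under 0.05 in limma. The median log2 difference was 0.05, and it was 0.02 to 0.03 under 3 other scalings and 0.03 without exposed dish 2. Ccnb1, for cyclin B1, had 153.0 ± 3.19 TPM in control and 163.7 ± 6.14 TPM in exposed dishes (SD, n = 4), 0.10 higher with a standard error of 0.03 (limma adjusted p = 0.191). Top2a, for the topoisomerase that untangles chromosomes, gave 0.07 with a standard error of 0.02 (limma adjusted p = 0.243), and Cdk1, for the mitotic kinase, gave 0.07 with a standard error of 0.03 (limma adjusted p = 0.302). Per dish the MCM sum was 0.727 to 0.76 times these genes in control and 0.756 to 0.792 times in exposed dishes. Whether the lists differ from the MCM genes in their response was not tested.

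**Figure D4:**
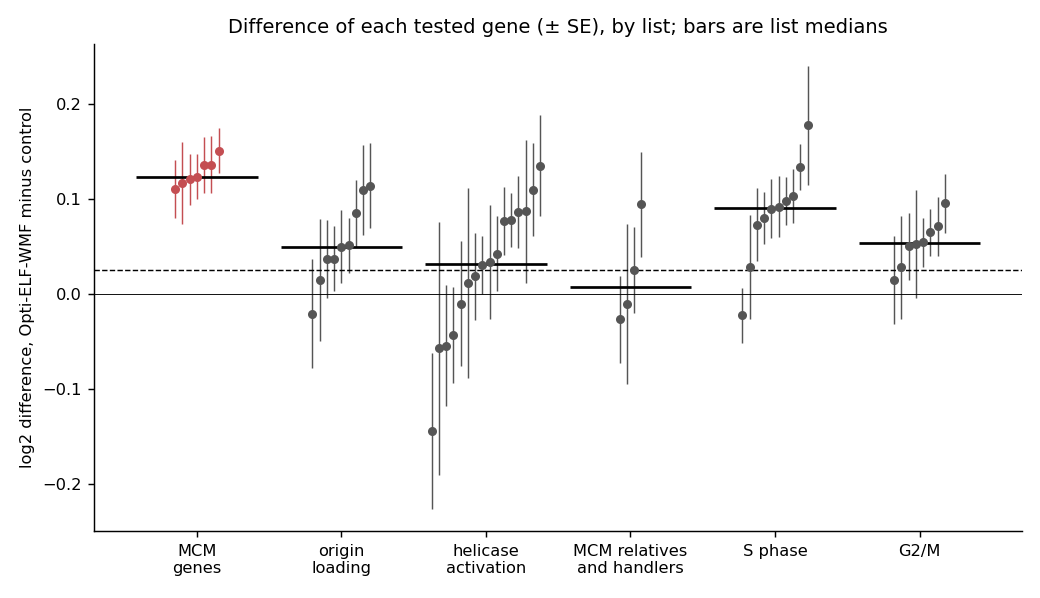
Log2 difference (Opti-ELF-WMF minus control) of every tested gene by list, with its standard error as a vertical line, the list median as a bar and the median of all genes (0.03) as a dashed line. The 7 MCM genes (median 0.12) sit in a narrow band from 0.11 to 0.15, S phase genes (median 0.09) reach into and above it, and the activation genes spread from -0.14 to 0.14.

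The size of the differences moved with the scaling of the dishes. With mitochondrial genes left out and TPM rescaled, the mean log2 difference of Mcm2 to Mcm7 was 0.10, in place of 0.13, and it was 0.10 with upper-quartile scaling and 0.11 with median-of-ratios scaling. Mcm3 then had 0.12 without mitochondrial genes, Mcm6 0.09 and Mcm7 0.08, and the median of all genes moved from 0.03 to between -0.002 and 0.005. With upper-quartile scaling the dishes of Mcm7 overlapped and 5 of 7 members had every exposed dish above every control dish. The share of all genes under that scaling was not counted, so nothing is read from this count. In these 3 scalings and with each of 8 dishes left out in turn, the 7 genes had a higher mean in exposed dishes, with the family mean of the 6 subunits between 0.11 and 0.14 when a dish was left out, lowest without exposed dish 2. Among genes with an unadjusted p-value under 0.05, 76.6% had a higher mean in the deposited TPM, 40.9% with upper-quartile scaling, 55.2% with median-of-ratios scaling and 50.0% without mitochondrial genes.

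**Figure D5:**
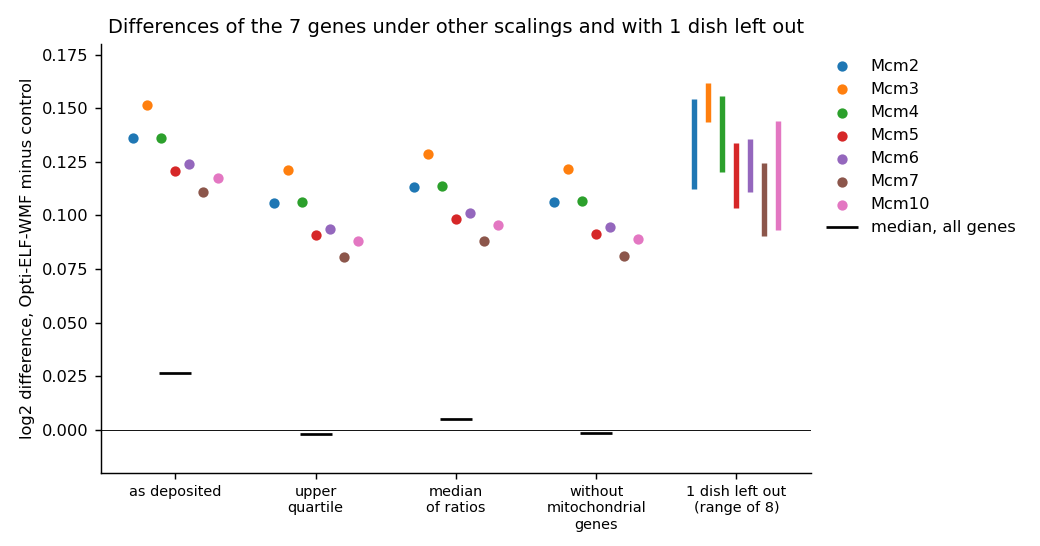
Log2 difference (Opti-ELF-WMF minus control) of each of the 7 genes in the deposited TPM and under 3 other scalings, with the median of all genes as a black bar, and on the right the range over 8 fits that each leave out 1 dish. The values of the 7 genes run from 0.11 to 0.15 as deposited and from 0.08 to 0.12 with upper-quartile scaling or without mitochondrial genes, all above the median of all genes.

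Between dishes of the same condition, the subunits moved together in part. With each condition's mean taken out, Pearson's r over 8 dishes between a gene's log2(TPM + 1) and the mean of Mcm2 to Mcm7, of which each subunit is itself 1 of 6 parts, was 0.87 for Mcm2, 0.80 for Mcm5, 0.77 for Mcm6, 0.67 for Mcm7, 0.38 for Mcm3 and 0.36 for Mcm4. Mcm10, which is not in that mean, gave 0.04. The mean itself stood 0.05 above its condition in exposed dish 2 and within 0.02 in the other dishes, so these values rest largely on that dish. The 5 other genes most like the mean were Ddx56 (0.99), Ogdhl (0.98), Usp5 (0.98), Pcdh7 (0.97) and Eif3c (0.97), picked as the highest of all tested genes over 8 dishes that share that 1 high dish. Their own log2 differences between conditions were 0.06, 0.04, 0.02, 0.11 and 0.09.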

How the data were processed

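RNA of 4 control and 4 exposed AML12 dishes was sequenced by the authors from stranded poly(A) libraries. The authors deposited TPM, 1 table of 55401 genes per dish. The submitters' processing notes name Trimmomatic 0.39, STAR 2.7.4a, RSEM 1.3.3 and mm10. The annotation is not given in the sources used here. TPM keeps no depth, so counting error is unknown and no count model was used. RSEM shares reads between overlapping or near-identical genes by estimate.

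The 12122 genes that reached 1 TPM in 4 or more dishes were compared as log2(TPM + 1) with limma 3.58.1 (eBayes with a trend) in R 4.3.3, two-sided, with Benjamini-Hochberg adjustment over all of them. Differences are on that scale, which understates low genes. The fit was also run on simulated data, with shifts far larger than the differences given here. That run therefore says nothing about how the fit handles differences of this size.

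The members and all lists were chosen with earlier results of these data known. Text names the 7 members, in each list up to 3 tested genes with the smallest p in each direction, and the 5 genes with the highest r to the subunit mean. Where a list had fewer genes with a lower mean, those are the ones named. Uhrf1, Orc1, Topbp1 and other genes are named beside a sequence word, marker genes as a check of the cell type, and Mcmdc2 as below the limit. Positions came from GENCODE M21 on GRCm38, promoter windows from RefSeq on GRCm38.p6 (6 of 7 members matched), near copies from BLAST of at least 90% identity over 200 bases. Alternatives covered pseudocount 0.1, the filter, 3 scalings, the trend, a replicate block and leaving out each dish.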

Additional observations from a re-analysis of the deposited data

Results flagged for a closer look

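By Dixon's test for 4 samples, 6 of 70 groups of 4 dishes had 1 dish far from the others, where about 1 in 20 groups, or 3.5 here, would by chance. Exposed dish 2 accounted for 3 of them: a summed Mcm2 to Mcm7 level of 1015.94 TPM against 971.32 to 973.83, Mcm5 at 129.96 TPM against 123.3 to 124.09, and Cdt1 at 62.75 TPM against 56.57 to 57.37. Among control dishes, Mcm4 was low in dish 1 (81.06 TPM against 84.62 to 84.96), Mcm5 was high in dish 4 (118.35 TPM against 113.63 to 114.32) and Gins3 was high in dish 2 (8.98 TPM against 7.73 to 7.92). The 70 groups did not take in every gene of the lists, so the 6 are not a full count. Cenpf, of the G2/M list, was not among them, with 34.7 TPM in control dish 2 against 37.37 to 37.41 in the other control dishes. The summed level without exposed dish 2 still lay above the control range of 894.4 to 903.0 TPM. Exposed dish 2 also stood apart outside the MCM genes. Its mitochondrial share was 5.99% of TPM against 6.96% to 7.69% in the other exposed dishes, and it had the most genes above 0 TPM (20114). Whether these go with its high MCM level was not tested.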

How the results depend on the processing

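TPM without depth limits every value, since counting error is unknown. Of 678 recomputed values, 647 were counted as kept. Counts and percentages had to stay within a fixed margin. Differences of members, list medians and shares had to stay within the spread between dishes, whatever their sign. Named list genes had to keep their direction and their side of the threshold. The number of genes tested and the median of all genes were counted as kept at any value. The filter, the trend and the replicate block cannot move a gene's log2 difference. The cause of the other shifts was not tested. Genes with a limma adjusted p-value under 0.05 went from 0 to 1 when every sample had to reach 1 TPM, with upper-quartile or median-of-ratios scaling and with no trend. With 1 dish left out they ran from 0 to 6, with 2 without control dish 2, 1 without control dish 3 and 6 without exposed dish 2. Genes with an unadjusted p-value under 0.05 numbered 1177 with upper-quartile scaling. Given for upper-quartile scaling, median-of-ratios scaling and TPM rescaled without mitochondrial genes in turn, the mean difference of Mcm2 to Mcm7 was 0.0997, 0.1073 and 0.1004, the median of the loading, activation and handling genes was 0.007, 0.0146 and 0.0077, the median of S phase genes was 0.061, 0.0686 and 0.0616, and that of G2/M genes 0.0237, 0.0313 and 0.0243, in place of 0.0539. The mean difference of Mcm2 to Mcm7 was 0.1149 to 0.1356 with 1 dish left out, and the G2/M median 0.034 to 0.0679, lowest without exposed dish 2. The difference of Mcm3ap turned to -0.0036 with upper-quartile scaling and to -0.003 without mitochondrial genes. With 1 dish left out it ran from -0.0125 to 0.0471. Other log2 differences of named list genes that changed sign ran from -0.0558 to 0.0206 (Orc3), from -0.0611 to 0.0002 (Mcmbp) and from -0.0461 to 0.0475 (Mcm9). The shifts in the shares of Mcm4, Mcm5 and Mcm6 in the subunit sum changed sign too.

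The labels do not say whether dishes with the same replicate number were paired. The correlation of same-numbered dishes' deviations was -0.042 to 0.026 over 4 pairs, and 0 dishes correlated best with their own number. Pairs with different numbers ran from -0.15 to 0.161, a wider scatter, so these values show no pairing but cannot exclude it. In a fit with a replicate block the mean difference of Mcm2 to Mcm7 was 0.1299, which the block cannot move in a balanced design. With the block 0 genes passed after adjustment, and 1889 in place of 1894 had an unadjusted p-value under 0.05.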
